A study of Solea senegalensis with 30 samples.

Results

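Circulating miR-143, miR-145, miR-221 and miR-222, the microRNAs best known from the blood vessel wall, were described in the blood plasma of 30 Senegalese sole. All rows of the count data named miR-143, miR-145, miR-221 or miR-222, with any letter or strand after the number, were taken, which gave 5 of 172 names (miR-143-3p, miR-145, miR-221-3p, miR-221-5p and miR-222a-3p) and 85 of 2129 isomiRs. An isomiR is a read sequence that differs from the other reads of its miRNA, here mostly in where it starts or ends. The 5 names held 40944 of 2390862 counts, or 1.71%. Small RNA had been sequenced from plasma of adult fish without visible haemolysis. The groups were females 2 d after an injection of the KISS2 decapeptide at 250 µg/kg (kisspeptin, n = 5) and their controls injected with phosphate buffered saline (n = 5), males 2 d after the same injections (6 kisspeptin, 4 control), and males 4 d after them (5 kisspeptin, 5 control). Each treatment was kept in one tank for the 2 d sampling and in another for the 4 d sampling. Within a day, treatment cannot be told apart from tank, and within a treatment, day cannot be told apart from tank. The libraries came from 2 sequencing runs, which the labels do not assign to fish.

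In vertebrates, miR-143 and miR-145 are transcribed from one cluster and are known from smooth muscle, where they maintain the contractile state. The genes of miR-221 and miR-222 also lie side by side, and their 3p strands share a seed, the bases that pair with target mRNAs. They are known from endothelium and from smooth muscle that has started to divide. A miRNA of the vessel wall can reach the plasma in vesicles or bound to protein, and a difference in plasma does not say which tissue released it.

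The most abundant isomiR of each name is shown, with some others. The levels are sums over such forms, and each form was counted in some of the fish only. The forms were read from the counted sequences, 5′ to 3′, with the seed (bases 2 to 8) in capitals. The 2 leading forms of miR-143-3p differ by a single base at the 3′ end, and the fourth form lacks the first base, which moves the seed by 1 position.
miR-143-3p, form 1: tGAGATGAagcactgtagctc
miR-143-3p, form 2: tGAGATGAagcactgtagct
miR-143-3p, form 3: tGAGATGAagcactgtagc
miR-143-3p, form 4: gAGATGAAgcactgtagctc
miR-145, form 1: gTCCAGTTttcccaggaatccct
miR-145, form 2: gTCCAGTTttcccaggaatccc
miR-221-3p, form 1: aGCTACATtgtctgctgggttt
miR-222a-3p, form 1: aGCTACATctggctactgggtct
miR-222a-3p, form 2: aGCTACATctggctactgggtctc
miR-222a-3p, form 3: aGCTACATctggctactgggtctct
miR-221-5p, form 1: aCCTGGCAtacaatgtaga

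The first 8 bases of miR-221-3p and miR-222a-3p were identical. Their seed, GCTACAT, belonged to no other name among the 172. The seeds of miR-143-3p (GAGATGA), miR-145 (TCCAGTT) and miR-221-5p (CCTGGCA) were each found in 1 name. None of the member sequences was listed under a second name.

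The partners of each cluster were present at very unequal levels. miR-143-3p, the 3p strand of miR-143, had 33471 counts, 1.40% of all counts, and was the 15th of 172 names by total. It was counted in all 30 fish, with 3 to 7399 counts and a median of 214.5. miR-145 had 683 counts and was counted in 27 fish, with 0 to 125 counts per fish. miR-222a-3p had 6119 counts and was counted in all 30 fish, with 4 to 761 counts and a median of 141.5. miR-221-3p had 641 counts in 20 fish, and miR-221-5p, the opposite strand of the same hairpin, had 30 counts in 9 fish. The library totals ran from 25468 to 191846 counts over the names analysed here, with a median of 60539. Levels are given as CPM, counts scaled to the same total in every library. By median CPM over the fish, miR-143-3p was the 23rd of the 172 names. A count of 0 allows up to 15.6 CPM (3 counts) in the largest library and up to 118 CPM in the smallest, and such limits cover counting error only. They hold only if every form of a miRNA had been listed in every library, which is not known.

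miR-143-3p varied more between fish than most miRNAs. Over the 30 fish, log2 CPM had a mean of 11.96 and an SD of 2.66, and 87.4% of the 95 names counted in at least 15 fish had a smaller SD (median 1.96). miR-222a-3p was steadier, with an SD of 1.38, and 25.3% of these names had a smaller one. The SD was 2.03 for miR-145 and 2.4 for miR-221-3p, with zeros held at the lowest fitted value.

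**Figure D1:**
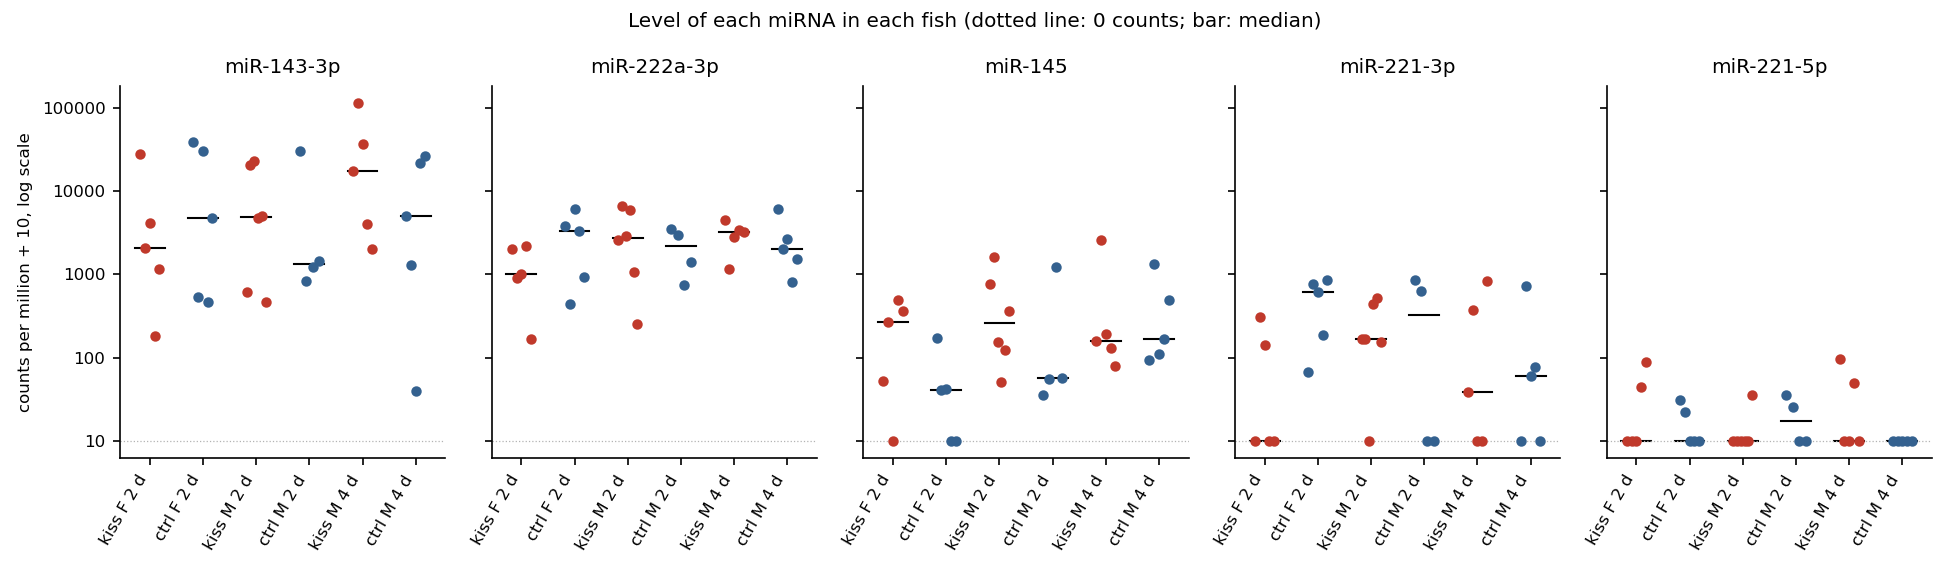
Level of each miRNA in each fish, as CPM plus 10 on a log axis, for kisspeptin (kiss, red) and control (ctrl, blue) females (F) and males (M) at 2 d and 4 d. Each point is 1 fish, bars are group medians and the dotted line marks 0 counts. miR-143-3p spans 30.3 to 114500 CPM, and its groups overlap throughout.

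In females at 2 d, miR-143-3p was at 27660, 2064, 4078, 173 and 1139 CPM in kisspeptin fish, against 38570, 532, 30150, 463 and 4796 CPM in control fish. One kisspeptin female and 2 control females stood far above the others, and the groups overlapped. In males at 2 d, the 6 kisspeptin fish ran from 463 to 22730 CPM with a median of 4863 CPM, against 30080, 826, 1203 and 1454 CPM in control fish. In males at 4 d, it was at 17650, 114500, 36420, 4008 and 2015 CPM in kisspeptin fish, against 5030, 1290, 30.3, 21480 and 26090 CPM in control fish. The highest and the lowest of all 30 values, in A4-8 (kisspeptin) and A3-6 (control), both came from males at 4 d.

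miR-222a-3p was at 1991, 884, 1008, 2175 and 157 CPM in kisspeptin females at 2 d, against 3816, 434, 6100, 3347 and 925 CPM in control females. The 3 highest control females lay above all kisspeptin females. In males at 2 d, it ran from 241 to 6633 CPM in kisspeptin fish, against 3489, 2953, 735 and 1407 CPM in control fish. In males at 4 d, it was at 4532, 1141, 2835, 3363 and 3202 CPM in kisspeptin fish, against 6019, 2031, 2639, 802 and 1531 CPM in control fish. The groups of males overlapped on both days.

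miR-145 rested on few counts. In females at 2 d, it was at 41.9, 262, 0, 483 and 353 CPM in kisspeptin fish, against 162, 30.6, 32.1, 0 and 0 CPM in control fish. In males at 2 d, it ran from 40.9 to 1593 CPM in kisspeptin fish, against 25.5, 45.9, 1203 and 47.7 CPM in control fish. In males at 4 d, it was at 150, 2573, 183, 121 and 69.9 CPM in kisspeptin fish, against 84.2, 1343, 101, 157 and 478 CPM in control fish. The fish with the most miR-145 counts were A4-8, with 106 of the 426 counts in kisspeptin fish, and A3-5, with 125 of the 257 counts in control fish.

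miR-221-3p was at 0, 295, 131, 0 and 0 CPM in kisspeptin females at 2 d, against 57.3, 764, 609, 178 and 850 CPM in control females. It was thus counted in 2 of 5 kisspeptin females and in 5 of 5 control females. Their library totals differed, with a median of 57941 counts in kisspeptin and 124752 in control females. A1-1, A1-4 and A1-11-9, the kisspeptin females at 0, had the lowest totals of their group (47725, 57941 and 25468 counts). The control female A2-10 had 52960 counts, 45 of them miR-221-3p. The part of depth in these zeros was not tested. Of the 6 kisspeptin males at 2 d, 5 had counts, at up to 508 CPM, against 840, 627, 0 and 0 CPM in control fish. In males at 4 d, it was at 28.6, 364, 0, 0 and 827 CPM in kisspeptin fish, against 0, 720, 50.6, 67.5 and 0 CPM in control fish. miR-221-5p had at most 12 counts in a fish, and all 5 control males at 4 d had none.

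With the 6 groups set in order of their mean log2 CPM, the gap between neighbours was smaller than either SD of the pair in all 5 steps for miR-143-3p, miR-145, miR-221-3p and miR-222a-3p. For miR-221-5p and for both strands of miR-221 summed, this was so in 4 of 5 steps. Neighbours in a sorted order lie close, so these gaps do not compare groups further apart. The mean log2 CPM of miR-143-3p was highest in kisspeptin males at 4 d (13.76 ± 2.36, SD, n = 5) and lowest in kisspeptin females (11.07 ± 2.74, SD, n = 5) and control males (11.07 ± 2.25, SD, n = 4) at 2 d, which were equal to 2 decimals. For miR-221-3p the order ran from control females at 2 d (8.67 ± 1.50, SD, n = 5) down to kisspeptin females at 2 d (5.35 ± 2.25, SD, n = 5).

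The level of miR-143-3p differed with whether its form 1, of 21 nt, was counted, and that form is itself part of the level. This form held 83.4% of the miR-143-3p counts but was counted in 11 fish only, with 813 to 6083 counts each, and was listed at 0 in 19 fish. The 11 fish had 17650 to 114500 CPM of miR-143-3p and the 19 fish had 30.3 to 5030 CPM, so the ranges did not touch. Counts outside form 1 did overlap. A3-11 had 5 and A2-11 had 33 of them, while the 19 fish had 3 to 530, though A2-2 and A4-9 had more. Where the form was counted, it made up 76.2% to 99.4% of the miR-143-3p counts of the fish. In the 19 fish, the miRNA was read only from other forms, among them the 20 nt form, which is 1 base shorter, led in 6 fish and had up to 460 counts there. In all, 9 different forms led in at least 1 fish. The 11 fish were 1 kisspeptin and 2 control females at 2 d, 2 kisspeptin males and 1 control male at 2 d, and 3 kisspeptin and 2 control males at 4 d.

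A like split was seen for miR-222a-3p, while levels of miR-145 and miR-221-3p with and without their form 1 overlapped. Form 1 of miR-222a-3p, of 23 nt, held 65.6% of its counts and was counted in 15 fish, with 89 to 684 counts each. The level of miR-222a-3p, which includes this form, was 2550 to 6633 CPM in these 15 fish and 157 to 2175 CPM in the other 15. The 2 leading forms of miR-145, which differ by 1 base at the 3′ end, were counted together in 4 fish, one alone in 5 and 8, and neither in 13. The same numbers were 3, 4, 6 and 17 for miR-221-3p. miR-145 was at 84.2 CPM in A3-2 with its form 1 and at 478 CPM in A3-11 without it. miR-221-3p was at 131 CPM in A1-3 with its form 1 and at 850 CPM in A2-10 without it. No member isomiR was counted in more than 15 fish. Over all names, 154 isomiRs had at least 1000 counts, of which 49 were counted in all 30 libraries and 58 in 15 or fewer, so forms listed at 0 in many libraries were not confined to these miRNAs. The cause of the zeros was not tested, and whether a 0 stands for a form that was not sequenced or for one that had been left out of the counts is not known. All levels summed over forms carry this doubt. In plasma, fewer vesicles or cells as a source and less miRNA from each cannot be told apart.

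**Figure D2:**
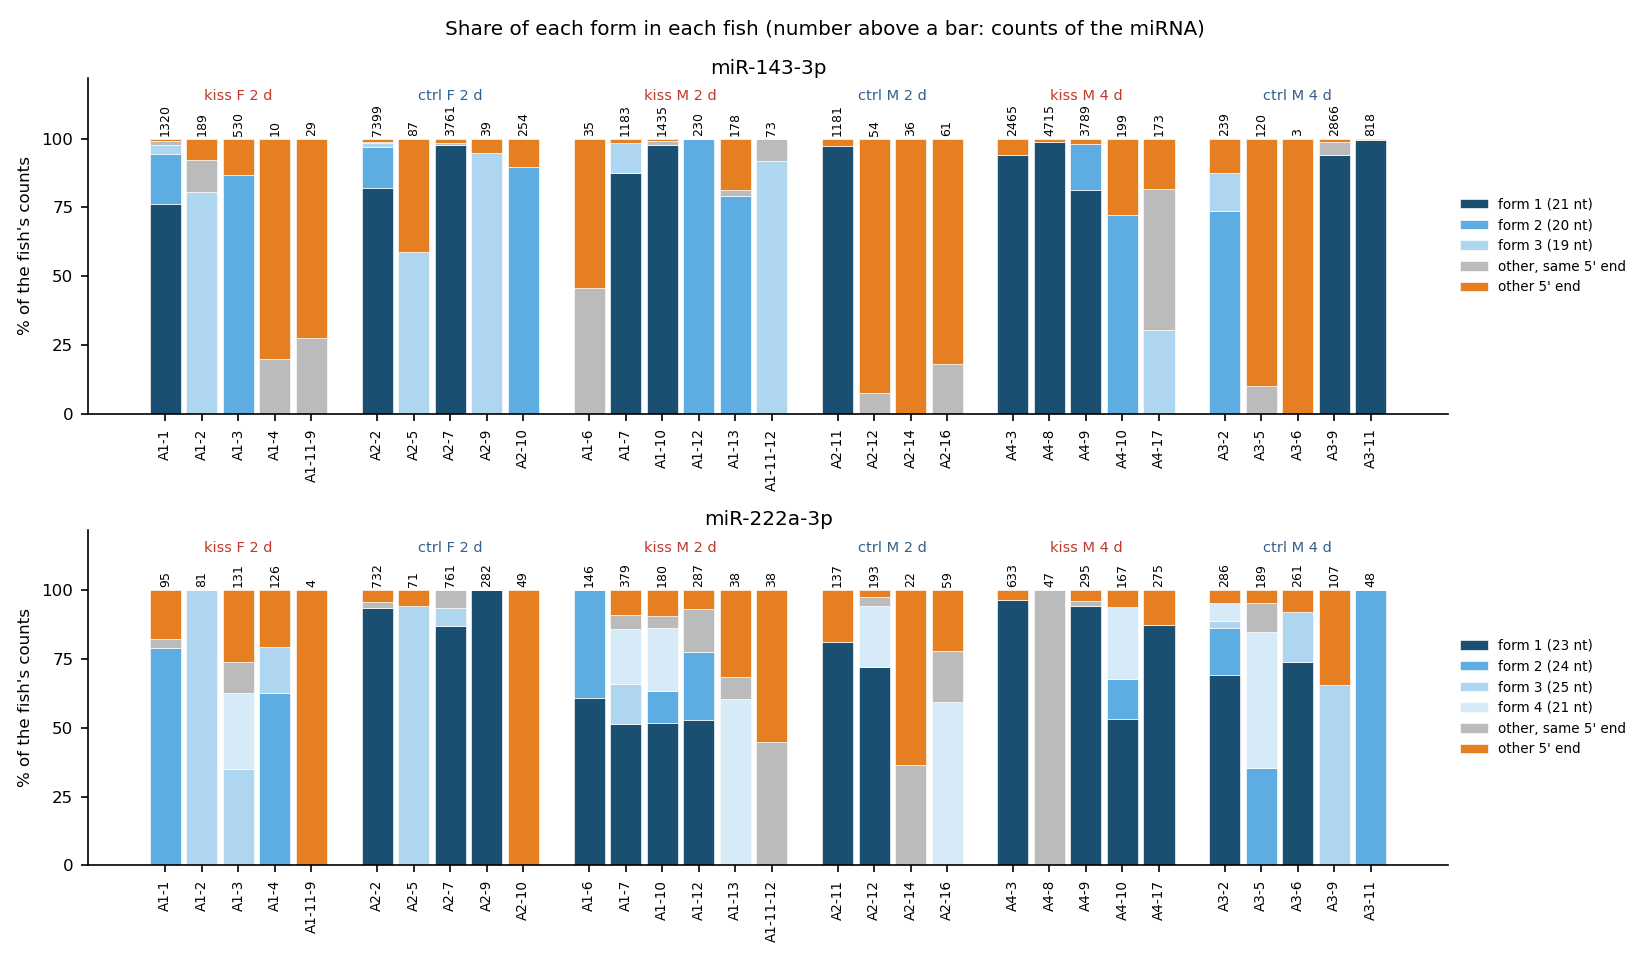
Share of the forms of miR-143-3p (top) and miR-222a-3p (bottom) in each fish, in percent of the fish's counts of that miRNA, which are given above the bars. Bars are single fish in the 6 groups, blue shades are the most abundant forms by length, grey is other forms with the same 5′ end and orange is forms with another 5′ end. The darkest colour, the 21 nt form of miR-143-3p or the 23 nt form of miR-222a-3p, is either the largest part of a bar or missing.

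Over the pooled counts, most reads of a member began at one base and ended at several. Of all miR-143-3p counts, 96.6% began at the same base as its most abundant form, and the share was 95.9% for miR-145, 94.5% for miR-221-3p, 93.3% for miR-221-5p and 92.1% for miR-222a-3p. The lengths ran from 15 to 23 nt for miR-143-3p and from 16 to 26 nt for miR-222a-3p. Reads that started 1 base later made up 1.36% of miR-143-3p and 5.51% of miR-222a-3p. The pooled shares are carried by the fish with the most counts. In 8 of 30 fish, with 3 to 120 miR-143-3p counts each, under 50% of the counts began at the main 5′ end, and for miR-222a-3p this was so in 4 fish, with 4 to 49 counts each.

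The treatment comparison asks whether kisspeptin, a neuropeptide that acts on the reproductive axis, changed circulating miRNAs. No member passed the test in females at 2 d. miR-221-3p had a log2 fold change of -2.44 (SE 1.58), miR-222a-3p of -1.42 (SE 0.88) and miR-143-3p of -1.30 (SE 1.36), while miR-145 had 1.75 (SE 1.52) and miR-221-5p 0.76 (SE 1.45). The adjusted p of edgeR's quasi-likelihood test with Benjamini-Hochberg adjustment was 0.58 for miR-221-3p and miR-222a-3p and 0.75 to 0.84 for the others. Each SE given with an edgeR fold change was worked back from that change and the F statistic of its test. It was not estimated separately. Of all 123 names tested, 0 passed (0%), and 11 had an unadjusted p under 0.05, none of them a member. Without the most abundant form of each member, the log2 fold change of miR-222a-3p turned to 1.28 (adjusted p = 0.67, edgeR), an alternative added after the data were seen.

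In males at 2 d, the log2 fold change was 0.18 (SE 1.37) for miR-143-3p, 0.93 (SE 1.56) for miR-145, -0.51 (SE 1.52) for miR-221-3p, -0.64 (SE 1.52) for miR-221-5p and 0.72 (SE 0.90) for miR-222a-3p. The adjusted p (edgeR) was 0.81 to 0.93. Again 0 of 123 names passed (0%), with 10 at an unadjusted p under 0.05 and no member among them. DESeq2 called 1 name, which was no member.

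In males at 4 d, miR-143-3p had a log2 fold change of 1.84 (SE 1.34), and the adjusted p was 0.94 (edgeR). The change was 0.67 (SE 1.28) for miR-145, 0.53 (SE 1.81) for miR-221-3p and 0.16 (SE 0.69) for miR-222a-3p, with an adjusted p of 0.98 for each (edgeR). None of 107 names passed (0%), and 2 had an unadjusted p under 0.05, neither a member. miR-221-5p was counted in 2 of these 10 fish and was not fitted. The SE of 0.69 to 1.81 on the log2 scale was large beside most of the changes, which only restates the tests. A p above the threshold does not show equal levels.

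**Figure D3:**
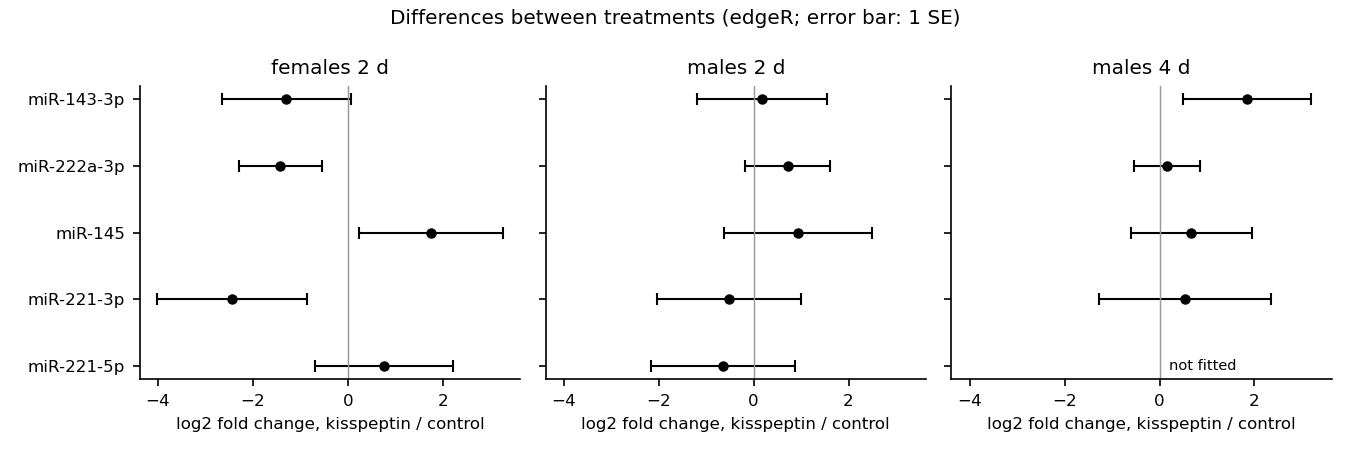
Log2 fold change of kisspeptin over control for each miRNA in females at 2 d, males at 2 d and males at 4 d. Points are estimates of edgeR and bars are 1 SE, worked back from the change and the F statistic of its test. None of the 14 differences passed the test, from -2.44 for miR-221-3p in females at 2 d to 1.84 for miR-143-3p in males at 4 d.

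Single isomiRs were compared in the same way, and none of 684, 684 and 362 isomiRs passed the main test in females at 2 d, males at 2 d and males at 4 d (0% each). At an unadjusted p under 0.05 there were 118, 72 and 15 isomiRs in all. Among the members, 24, 24 and 8 isomiRs were tested, and 7, 6 and 0 had an unadjusted p under 0.05. All 13 came from forms with a count in 4 or fewer fish of the comparison, and in all 13 one treatment had no counts at all.

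In females at 2 d, form 1 (23 nt) of miR-222a-3p was listed at 0 in all 5 kisspeptin fish, while 3 of 5 control fish had it. Its log2 fold change was -10.9 (SE 3.08; adjusted p = 0.25, edgeR). Form 2 (24 nt), 1 base longer, went the other way, with counts in 2 kisspeptin fish and no control fish (log2 fold change 8.41, SE 2.79; adjusted p = 0.25, edgeR). DESeq2 called the 23 nt form (adjusted p = 0.0087), and without the filter on low counts edgeR called both forms (adjusted p = 0.00018 and 0.013). The sum of the forms moved less than either of them. In males at 2 d, forms 3 (19 nt) and 2 (20 nt) of miR-143-3p were each counted in 2 of 6 kisspeptin fish and in 0 of 4 control fish, with log2 fold changes of 7.97 (SE 3.33) and 9.57 (SE 4.17) and adjusted p = 0.44 for each (edgeR). DESeq2 called both, with log2 fold changes of 21.8 and 23.4 (adjusted p = 2.3e-08 and 3.2e-06). Without the filter, edgeR called the 20 nt form (adjusted p = 0.0064). In females and males at 2 d, DESeq2 thus called 1 and 2 of 24 member isomiRs, beside 13 and 13 of all 684. Unfiltered edgeR called 2 and 1 of 74 member isomiRs, beside 26 and 20 calls over all isomiRs with a count in the fit. The number of all isomiRs in that fit was above 684 and is not given here, so these 2 shares cannot be compared. The member calls were not tested against the calls over all isomiRs. In edgeR, fold changes of forms with no counts in one treatment depend on the prior count, as do their SEs, and they are not bounds. The DESeq2 calls rest on the same zeros, and their p-values do not measure how many fish carry a form.

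The 5′ end of miR-143-3p differed most between treatments in males at 2 d. In kisspeptin males, 16 of 35 counts (45.7%, Wilson 95% interval 30.5 to 61.8%) began at the main 5′ end in A1-6, 81.5% (75.1 to 86.5%) in A1-13, and 1165 of 1183, 1421 of 1435, 230 of 230 and 73 of 73 counts in the others. In control males, these were 1148 of 1181, 4 of 54, 0 of 36 and 11 of 61 counts. The 3 control males with few such reads had none of the forms 1 to 3, and their totals of 36 to 61 counts were low. Shares carry the same doubt about forms listed at 0 as the summed levels, and the Wilson intervals cover counting error only. The mean share was 87.4% ± 21.7 in kisspeptin males (SD, n = 6) and 30.7% ± 45.0 in control males (SD, n = 4), a difference of 56.8 percentage points (two-sided exact permutation test, p = 0.029, and 0.086 after adjustment over 3 comparisons). The permutation p of 0.029 was the smallest among all ratio and share tests, and the adjustment did not cover the other measures. With a minimum of 50 counts per fish in place of 20, the adjusted p was 0.21. The difference was -11.7 percentage points in females at 2 d and 15.1 in males at 4 d, with an adjusted p of 0.73 for each (exact permutation).

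For miR-222a-3p, the share with the main 5′ end was 83.9% ± 11.3 in kisspeptin females (SD, n = 4) and 78.0% ± 43.7 in control females (SD, n = 5) at 2 d, and the adjusted p of the exact permutation tests was 0.92 to 0.97 over the 3 comparisons. The share in the 23 nt form was 0% in all 4 kisspeptin females with at least 20 counts, against 56.1% ± 51.4 in control females (SD, n = 5; adjusted p = 0.36, exact permutation). It was 66.3% ± 40.9 in kisspeptin males at 4 d and 28.6% ± 39.3 in control males at 4 d (SD, n = 5 each; adjusted p = 0.36, exact permutation). For the 21 nt form of miR-143-3p, the adjusted p was 1 in each comparison (exact permutation). miR-145 and miR-221 had at least 20 counts in too few fish of a group for a test.

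The ratio of the cluster partners was taken within each fish, with 1 count added to each partner. In the 3 fish with no miR-145 counts and the 7 with no miR-221 counts, it is set by the count of the other partner and so by depth. miR-143 exceeded miR-145 in 25 of 30 fish, with a mean log2 ratio of 4.71 (SD 3.26) and a range of -1.46 to 9.55. The mean log2 ratio was 4.19 ± 4.59 in kisspeptin and 6.92 ± 2.28 in control females at 2 d, 3.73 ± 3.09 in kisspeptin and 4.34 ± 3.78 in control males at 2 d, and 5.86 ± 1.28 in kisspeptin and 3.35 ± 3.83 in control males at 4 d (SD, n = 5 per group, but 6 and 4 in males at 2 d). The differences of -2.73, -0.61 and 2.51 had adjusted p-values of 0.44, 0.77 and 0.44 (two-sided exact permutation tests).

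miR-221, both strands together, was below miR-222 in 29 of 30 fish, with a mean log2 ratio of -3.76 (SD 2.45) and a range of -8.21 (A4-9, with no miR-221 counts) to 0.83. The exception was a control female, A2-5. Kisspeptin minus control was -0.98 in females at 2 d, 0.0039 in males at 2 d and 0.28 in males at 4 d, with an adjusted p of 0.99 for each (two-sided exact permutation tests). Neither ratio passed the test in any comparison.

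No difference between sexes or days passed the test for a member. In males against females at 2 d, the log2 fold changes of the 5 names ran from -1.53 to 1.31 in kisspeptin fish and from -1.50 to 2.12 in control fish. In males at 4 d against 2 d, they ran from -0.06 to 1.87 in kisspeptin fish and from -2.68 to 0.65 in control fish. In each of these 4 comparisons 0 of 123 or 125 names passed (0%), and the smallest adjusted p of a member was 0.60 (edgeR). The treatment effect was tested between the sexes and between the days, and again 0 of 123 and 0 of 125 names passed (0% each). The difference nearest the threshold was that of miR-221-5p between the days (log2 4.55, SE 1.97; unadjusted p = 0.033, adjusted p = 0.41, edgeR), which rests on 20 counts in 5 of 20 males. Beside these counts of 0, limma-voom and DESeq2 called 0 to 2 names in a comparison, none of them a member.

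No co-variation of the miRNAs of one cluster was seen over the fish. With group means subtracted, miR-143 and miR-145 had r = 0.03 (rho = 0.01) over 30 fish, and the adjusted p over 6 pairs was 0.90 for r and 0.98 for rho (permutation tests). Without A3-6 and A1-1, the 2 fish farthest from the median of miR-143, r was 0.02. miR-221 and miR-222 had r = -0.06 (rho = -0.06) with an adjusted p of 0.90 for both (permutation tests), and r = -0.07 without A1-10 and A4-9. The other 4 pairs had r from -0.19 to 0.17 with an adjusted p of 0.82 to 0.90 (permutation tests). As a description, 4420 pairs of names with different numbers had a median r of 0.04, with 90% of them between -0.32 and 0.39, so both clustered pairs lay near the middle. All pairs share their libraries and depths. The levels carry the doubt about forms listed at 0. In addition, 3 fish had no miR-145 counts and 7 had no miR-221 counts. An r near 0 from such values does not show that the partners of a cluster vary apart. When the most abundant form of each member was left out, r was -0.26 for miR-143 and miR-145.

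**Figure D4:**
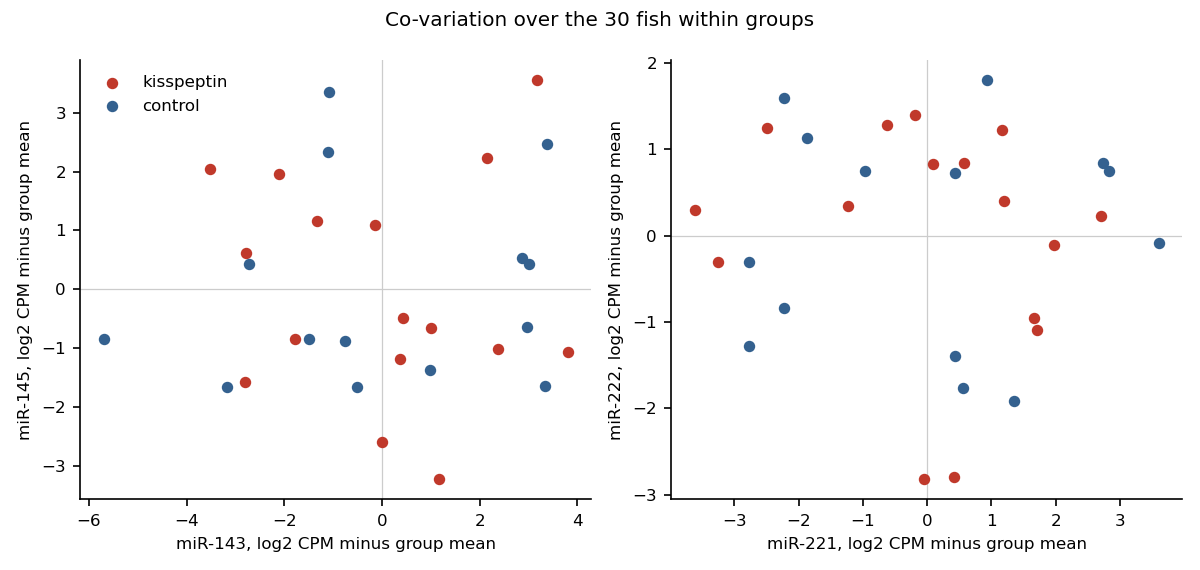
Level of miR-145 against miR-143 (left) and of miR-222 against miR-221 (right) in 30 fish, each as log2 CPM minus the mean of the fish's group, with kisspeptin fish in red and control fish in blue. Each point is 1 fish. No common rise is seen in either pair (r = 0.03 and r = -0.06), with no miR-145 counts in 3 fish and no miR-221 counts in 7.

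No relation passed the test between the 4 members and the library total (r from -0.11 to 0.21) or the summed level of the erythrocyte miRNAs miR-451, miR-144 and miR-16 (r from -0.33 to 0.08), with an adjusted p of 0.70 for all 8 relations (permutation tests). The strongest was that of miR-143 with the erythrocyte miRNAs (r = -0.33, rho = -0.36), and r was -0.22 without the 2 fish at the ends. The erythrocyte miRNAs made up 142400 to 475500 CPM of a library.

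The names most like each member over the 30 fish were weakly like it. By Pearson's r of log2 CPM, over 94 names, they were miR-19d (0.36), miR-126b (0.31) and miR-222a-3p (0.25) for miR-143, miR-150 (0.46), miR-375 (0.33) and miR-30c (0.31) for miR-145, miR-217 (0.51), miR-205-5p (0.40) and miR-27c (0.37) for miR-221, and miR-1388-5p (0.49), miR-196a (0.44) and miR-30e-5p (0.32) for miR-222. These are the highest of many values in sparse counts, and no partner of a cluster was among them.

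Other miRNAs known from the vessel wall were set beside the members. The list held miR-21, miR-23, miR-24, miR-26, miR-27, miR-126, miR-130, miR-132, miR-133, miR-155 and miR-210, of which 10 were present under 27 names. None of the 21, 21 and 19 names tested passed in females at 2 d, males at 2 d and males at 4 d. Their median log2 fold change was -0.41, 0.15 and 0.03, beside 0.04, -0.10 and 0.03 over all names tested. The smallest p in females at 2 d were those of miR-130c, with a log2 fold change of -4.29 (SE 1.75), and of miR-126a-3p, an endothelial miRNA, with -1.10 (SE 0.46), and the adjusted p was 0.42 for both (edgeR). All 3 names of miR-126 had negative values in females at 2 d (median -1.10) and positive ones in males at 2 d (median 0.23), and in males at 4 d 1 was positive and 2 were negative (median -1.10).

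The plasma libraries also held miRNAs known from muscle, liver, endothelium and blood cells. These lists shared miR-126, miR-133 and miR-155 with the vessel wall list above. The muscle miRNAs (miR-1, miR-133 and miR-206) had median summed levels of 37210 CPM in kisspeptin and 6968 CPM in control females at 2 d, 108100 CPM in kisspeptin and 25050 CPM in control males at 2 d, and 31080 CPM in kisspeptin and 20410 CPM in control males at 4 d. The ranges overlapped: 3658 to 118500 against 1569 to 17640, 7719 to 152600 against 8659 to 74440, and 2469 to 40570 against 10900 to 123800 CPM. Of their 8 names, 4 were tested. All 4 were higher with kisspeptin in females at 2 d, but 2 were higher and 2 lower in males on each day. The liver miRNA miR-122 ran from 76.1 to 203900 CPM over the fish. The 3 miR-126 names ran from 18320 to 125000 CPM. The leukocyte and thrombocyte miRNAs (miR-223, miR-142, miR-150 and miR-155) summed to 3901 to 51480 CPM. No name of these lists passed the test in a treatment comparison (edgeR), and their part in the values of the vascular miRNAs was not tested.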

How the data were processed

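Plasma small RNA of 30 fish had been prepared with the NEXTflex Small RNA-Seq v3 kit. Per the paper's methods, the authors trimmed adapters and 4 random bases at each end of a read. They mapped the reads to the hairpins of miRBase 21 with bowtie2 (k = 10). For a name found in several species, they kept the most expressed one. The submitters' notes give Cutadapt 2.1, Bowtie2 2.4.1 and HTSeq 0.6.0. The authors deposited raw counts per isomiR, without normalization. A read cut or trimmed by 1 base is another isomiR, so levels depend on which forms were listed.

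IsomiR counts were summed by name. Contrasts were fitted with edgeR 4.0.16 (TMM, quasi-likelihood, R 4.3.3) on names or isomiRs with at least 1 cpm in at least 4 fish, with the 20 fish of 2 d, the 10 males of 4 d or the 20 males of both days in a fit. TMM factors ran from 0.69 to 1.38. The common dispersion at 2 d was 1.72, or a coefficient of variation of 131% between fish. Log2 CPM used a prior count of 1. Ratios (1 count added to each) and shares (fish with at least 20 counts) were compared by two-sided exact permutation tests of 252 or 210 splits, and correlations by 100000 permutations within groups. The 61 pairs of fish within groups had 27.8 to 158 chi-square per degree of freedom, so no library duplicated another of its group. Pairs from different groups were not compared in this way. Fish were separate animals, but replicate numbers only name them.

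All member names are named, with the most abundant isomiR of each. Other isomiRs, chosen after their values were seen, are shown for some names, such as those a result turned on. Not every isomiR with at least 10% of a name is shown. The sequences left out are form 3 of miR-145 (13.6%) and forms 2 and 3 of miR-221-3p (19.8% and 15.3%). Forms 2 to 4 of miR-221-5p (26.7%, 16.7% and 16.7%) are also left out. The 3 most similar names were taken per number. The members and lists were chosen with earlier results of these data known. Of the marker lists, miR-486, miR-499 and miR-132 are not analysed here. Alternatives were limma-voom (limma 3.58.1), DESeq2 1.42.0, no scaling factors, other filters, other sets of fish in a fit and each fish left out. The edgeR script was tested on simulated data. Other steps used Python 3.11.15, numpy 2.4.6, pandas 2.3.3, scipy 1.17.1 and matplotlib 3.10.9.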

Additional observations from a re-analysis of the deposited data

Results flagged for a closer look

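In 5 of 42 sets of values (a member's log2 CPM or a ratio within 1 group), a single fish stood apart from the rest of its group, by its gap to the nearest fish relative to the group's range. The rule was set to flag about 1 in 20 such sets by chance, or 2.1 of 42. Some sets hold tied zeros, and the ratios reuse the counts of the members. The number of flags therefore cannot be weighed against that rate. Among kisspeptin males at 2 d, miR-221-3p was at 3.72 log2 CPM (0 counts) in A1-10, against 7.15 to 8.99 in the other 5, and miR-221-5p was at 5.43 in A1-11-12 (4 counts), while the other 5 had none. Among control males at 2 d, miR-143-3p was at 14.41 in A2-11, the one fish of the group with the 21 nt form, against 9.58 to 10.30 in the others. In the same group, miR-145 was at 9.98 in A2-14, against 4.98 to 5.78. Among kisspeptin males at 4 d, miR-145 was at 11.46 in A4-8, against 6.34 to 7.42, and the same fish had the highest miR-143-3p level of all.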

How the results depend on the processing

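No paired analysis was possible because replicate numbers only name the fish. The members had no call in any comparison of names under any alternative, and the adjusted p-values of their treatment effects ranged from 0.42 to 1. Over all names, DESeq2 called 1 in males at 2 d, 1 for the difference between the sexes, 2 for that between the days and 1 for 4 d against 2 d in kisspeptin males, and limma-voom called 1 for the difference between the sexes, 1 for males against females in controls and 1 for 4 d against 2 d in kisspeptin males. Over all isomiRs, DESeq2 called 13 in females at 2 d, 13 in males at 2 d and 2 in males at 4 d, limma-voom called 1 in males at 4 d, and edgeR without the filter called 26, 20 and 24, while the other alternatives called 0. The fits without the filter tested every isomiR with a count, more than the 684, 684 and 362 of the main fits. With each fish left out, the calls ran from 0 to 1 for the difference between the days (1 without A4-9) and for isomiRs in males at 2 d (1 without A1-10), and stayed at 0 elsewhere.

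Several differences changed sign, among them that of miR-222a-3p in females at 2 d, which was -1.42 in the main test. Under limma-voom, the log2 fold change was 0.64 for miR-221-3p and -0.15 for miR-222a-3p in males at 2 d, and -0.18 for miR-145 in males at 4 d. Without the most abundant form of each member (added after seeing the data), it was 1.28 for miR-222a-3p in females at 2 d, 0.12 for miR-221-3p in males at 2 d, and -0.17 for miR-221-3p and -0.98 for miR-222a-3p in males at 4 d. In that setting, r was -0.26 for miR-143 with miR-145, 0.20 for miR-145 with miR-221 and 0.18 for miR-145 with miR-222. With group means not subtracted, r of miR-221 with miR-222 was 0.022. With a minimum of 50 counts, the share at the main 5′ end differed by 6.29 points for miR-143 and -13.7 for miR-222 in females at 2 d, and the share in the 23 nt form of miR-222 by 3.18 in males at 2 d.

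With each fish left out in turn, the log2 fold change ran from -0.32 to 1.64 for miR-221-5p in females at 2 d, from -0.19 to 2.88 for miR-143-3p and -0.92 to 0.13 for miR-221-3p in males at 2 d, and from -1.71 to 1.52 for miR-145, -0.69 to 2.69 for miR-221-3p and -0.10 to 0.82 for miR-222a-3p in males at 4 d. The log2 ratio of miR-143 to miR-145 in males at 2 d ran from -2.06 to 1.01, and that of miR-221 to miR-222 from -0.75 to 0.78 in males at 2 d and -0.56 to 1.19 in males at 4 d. The share in the most abundant form ran from -6.80 to 30.9 points for miR-143 in males at 2 d, from -9.67 to 23.5 in males at 4 d and from -14.9 to 12.1 for miR-222 in males at 2 d. The share at the main 5′ end ran from -19.3 to 4.59 for miR-143 in females at 2 d, from -6.25 to 23.5 in males at 4 d, and for miR-222 from -13.7 to 11.4 in females at 2 d, from -4.17 to 16.2 in males at 2 d and from -0.91 to 7.73 in males at 4 d. In males at 2 d, the share of miR-143 kept its sign, with 46.6 to 79.0 points. The r of miR-143 with miR-145 ran from -0.10 to 0.11, and that of miR-145 with miR-221 from -0.15 to 0.11. The cause of these changes was not tested. Depth limits miR-145, miR-221-3p and miR-221-5p, with at most 125 counts per fish.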
